A study of Mus musculus with 10 samples.

Results

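MicroRNAs were compared between a Lin28a and a control culture of mouse neural stem cells at passage 3 (P3), with 1 small RNA library on each side. Counts on each mature microRNA were scaled to all microRNA counts of the library as CPM, a scale on which 10000 CPM is 1% of the counts, and a microRNA entered the comparison at 10 CPM or more in either library. This kept 414 of the 1093 microRNAs listed in either P3 library, out of 1209 in the whole series. The rest were under the minimum in both P3 libraries. A microRNA not listed for a library was taken as having no read there. The minimum fell between miR-669e-5p, with a larger CPM of 9.77 just outside, and miR-29a-5p and miR-34a-3p, each at 10.1 just inside.

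The cultures were neural stem cells taken on embryonic day 10 from the ventral midbrain of ICR mice. They had been transduced with a Lin28a lentivirus or with a mock one, grew with a passage every 4 days and were collected at passage 1 (P1) and P3. The control group at P3 was therefore the mock culture at passage 3 and the Lin28a group the Lin28a culture at the same passage. Small RNA and RNA-seq libraries exist for both cultures at both passages, with 1 library per combination. The labels give neither the promoter of the virus, the share of transduced cells nor the number of embryos pooled. With 1 library a side there is no replicate check, so no test was run, and the intervals below cover counting error only.

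Let-7 microRNAs are cut from hairpin precursors by Drosha and then Dicer, and the 5′ arm of the hairpin becomes the guide strand that loads into Argonaute and represses messages that carry matching sites. Lin28a, a protein of undifferentiated cells, binds let-7 precursors, in part through a GGAG motif near the end of the loop, and recruits uridylyl transferases that mark the precursor for decay by Dis3l2. In neural progenitors let-7 accumulates as cells mature, while Lin28a is high in early progenitors and declines.

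The 4 small RNA libraries held between 6322534 and 8542827 microRNA counts, with 8288085 in P3 control and 8542827 in P3 Lin28a. The 10 most abundant microRNAs took 49.0% of the counts in P3 control and 48.6% in P3 Lin28a. In the RNA-seq libraries, whose unit FPKM scales fragments to transcript length and depth, Lin28a RNA was at 478 FPKM in the Lin28a culture at P1 and 104 at P3. Control had 0.13 FPKM at P1 and 0.062 at P3, so the labels and the transgene go together. Lin28b was under 1 FPKM in all 4. All 7 neural stem cell markers examined were at 1 FPKM or more at P3, while the 3 microglial markers were not. The markers of other cells also reached 1 FPKM in either P3 library. These were all 3 neuronal, 3 astroglial, 3 oligodendrocyte, 5 ventral midbrain and 4 mesenchymal markers, and 1 of 3 endothelial ones.

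RefSeq mature sequences on build GRCm38.p6 were held for 361 of the 414 microRNAs. The 9 let-7 and miR-98 guide strands compared share the seed, bases 2 to 8 counted from the 5′ end, and differ in the 3′ part. They are shown because they carry the largest group of low values, in the order of their ratios from lowest to highest, with the seed in capitals.
miR-98-5p: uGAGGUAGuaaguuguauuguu
let-7i-5p: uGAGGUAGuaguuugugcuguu
let-7d-5p: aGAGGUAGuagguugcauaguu
let-7f-5p: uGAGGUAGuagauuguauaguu
let-7b-5p: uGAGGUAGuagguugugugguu
let-7a-5p: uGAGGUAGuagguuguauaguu
let-7g-5p: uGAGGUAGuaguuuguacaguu
let-7e-5p: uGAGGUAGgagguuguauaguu
let-7c-5p: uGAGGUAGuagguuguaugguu

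The hairpins from which these strands are cut differ in the loop. The stretch between the arms was searched for GGAG on the transcribed strand, and the motif was found in 9 of the 12 let-7 and miR-98 hairpins (75%), against 44 of 633 other hairpins with both arms known (6.95%). Anywhere in the hairpin GGAG was common, in 447 of 1005 hairpins of the table (44.5%). Loops of let-7 hairpins are shown because let-7c, the guide strand with the smallest difference, comes from a pair of hairpins that differ in this motif. Capitals mark GGAG.
Mirlet7c-1, chr16:77599657-77599750, plus strand: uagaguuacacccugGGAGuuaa
Mirlet7c-2, chr15:85706603-85706697, plus strand: uugggcucugccccgcucugcgguaa
Mirlet7b, chr15:85707319-85707403, plus strand: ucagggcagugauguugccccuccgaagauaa
Mirlet7f-2, chrX:151912346-151912428, plus strand: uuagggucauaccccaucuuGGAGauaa
Mirlet7a-1, chr13:48538179-48538272, minus strand: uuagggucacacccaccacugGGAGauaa
Mirlet7f-1, chr13:48537829-48537917, minus strand: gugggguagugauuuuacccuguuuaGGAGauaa
Mirlet7d, chr13:48536012-48536114, minus strand: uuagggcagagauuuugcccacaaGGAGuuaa
Mirlet7a-2, chr9:41536716-41536811, plus strand: uagaguuacaucaagGGAGauaa
Mirlet7g, chr9:106178840-106178927, plus strand: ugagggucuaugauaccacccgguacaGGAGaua
Mirlet7i, chr10:122985640-122985724, minus strand: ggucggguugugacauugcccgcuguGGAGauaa
Mirlet7e, chr17:17830352-17830444, plus strand: gaggaagacacccgaGGAGauca

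Across the 414 microRNAs, 64 were past 2-fold higher in Lin28a than in control at P3 (15.5%) and 50 were past 2-fold lower (12.1%), while 300 lay within 2-fold. Ratios are log2 of (CPM + 1) in Lin28a over (CPM + 1) in control, so past 2-fold means beyond 1 in either direction. The median ratio was 0.08, the quartiles were -0.44 and 0.64, and values ran from -3.36 for miR-98-5p to 2.96 for miR-299a-5p. Among the 27 microRNAs with 10000 CPM or more in either library, 4 were past 2-fold lower, namely let-7a-5p, let-7f-5p, let-7i-5p and miR-21a-5p, and miR-127-3p was past 2-fold higher. When the let-7 family was left out of the total used for scaling, the median of all moved from 0.08 to -0.08 and the split became 52 higher and 61 lower.

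**Figure D1:**
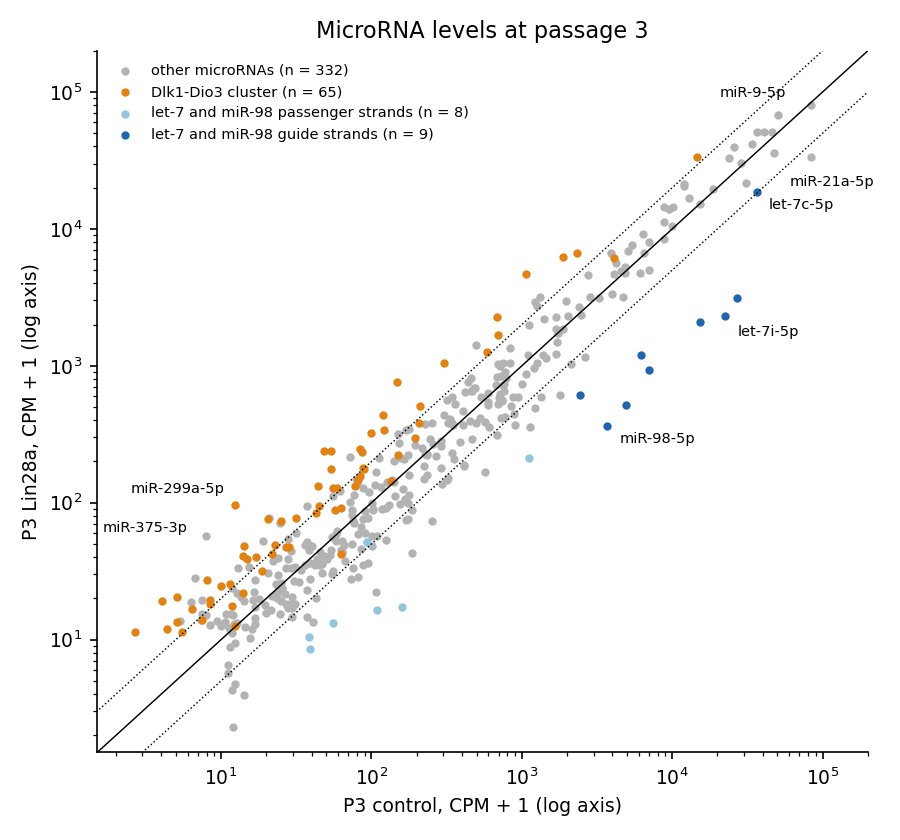
Each point is 1 of the 414 compared microRNAs, with CPM + 1 in P3 control on the x axis and in P3 Lin28a on the y axis, both logarithmic. The solid line marks equal levels and the dotted lines 2-fold. The let-7 and miR-98 guide strands lie below the lower dotted line apart from let-7c-5p, and most of the Dlk1-Dio3 cluster lies above the upper one.

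The let-7 and miR-98 guide strands were 12.5% of all microRNA counts in P3 control and 2.97% in P3 Lin28a, which is 4.23-fold lower (95% interval of the count ratio 4.21 to 4.25). At P1 the shares were 5.52% in control and 4.51% in Lin28a, which is 1.22-fold lower (1.22 to 1.23). The share was thus highest in P3 control and lowest in P3 Lin28a. Of the 9 guide strands compared at P3, 8 were past 2-fold lower and 0 higher, with a median of -2.91 against 0.08 for all 414. In these cultures fewer cells with let-7 and less let-7 per cell cannot be told apart.

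MiR-98-5p had the lowest ratio of all. It was at 1697 CPM in P1 control, 1227 in P1 Lin28a, 3707 in P3 control and 359 in P3 Lin28a, which at P3 is 10.3-fold lower (9.94 to 10.7). Let-7i-5p followed with 10612, 7513, 22426 and 2324 CPM in the same order, 9.65-fold lower at P3 (9.51 to 9.79). In both, the Lin28a library at P3 was below either P1 library and the control library at P3 above them.

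Let-7d-5p stood at 4939 CPM in P3 control and 516 in P3 Lin28a (9.57-fold lower, 9.27 to 9.87). Let-7f-5p stood at 26867 and 3133 CPM, with a ratio of -3.10, and let-7a-5p at 15412 and 2075 CPM, with -2.89. These 3 come in part from the same cluster of hairpins on chromosome 13. Let-7b-5p was at 909 CPM in P1 control and 500 in P1 Lin28a, and at 7000 in P3 control and 931 in P3 Lin28a, so that its P3 Lin28a level was close to the P1 control level. Let-7g-5p was at 6193 and 1191 CPM at P3 (-2.38), and let-7e-5p at 2445 and 609 CPM (-2.00). Let-7j had 17 counts in P3 control and 2 in P3 Lin28a, under the minimum, and let-7k was not listed.

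Over the scalings run, between 8 and 9 of the 9 guide strands compared were past 2-fold lower. Let-7c-5p was the only one within 2-fold when scaled to all microRNA counts. It was at 13903 CPM in P1 control, 15171 in P1 Lin28a, 36399 in P3 control and 18518 in P3 Lin28a, which at P3 is 1.97-fold lower (1.95 to 1.98) and a log2 ratio of -0.97. It made up 29.0% of the guide strand counts in P3 control and 62.4% in P3 Lin28a. Without let-7c the other guide strands together were 8.90% of all counts in P3 control and 1.11% in P3 Lin28a, which is 7.99-fold lower (7.94 to 8.04). Let-7a, let-7c and let-7f each come from 2 hairpins and their reads appear, from the hairpin counts, to have been counted at both, so these shares depend on the counting. With each read counted once, let-7c-5p was at 22479 CPM in P3 control and 11266 in P3 Lin28a.

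**Figure D2:**
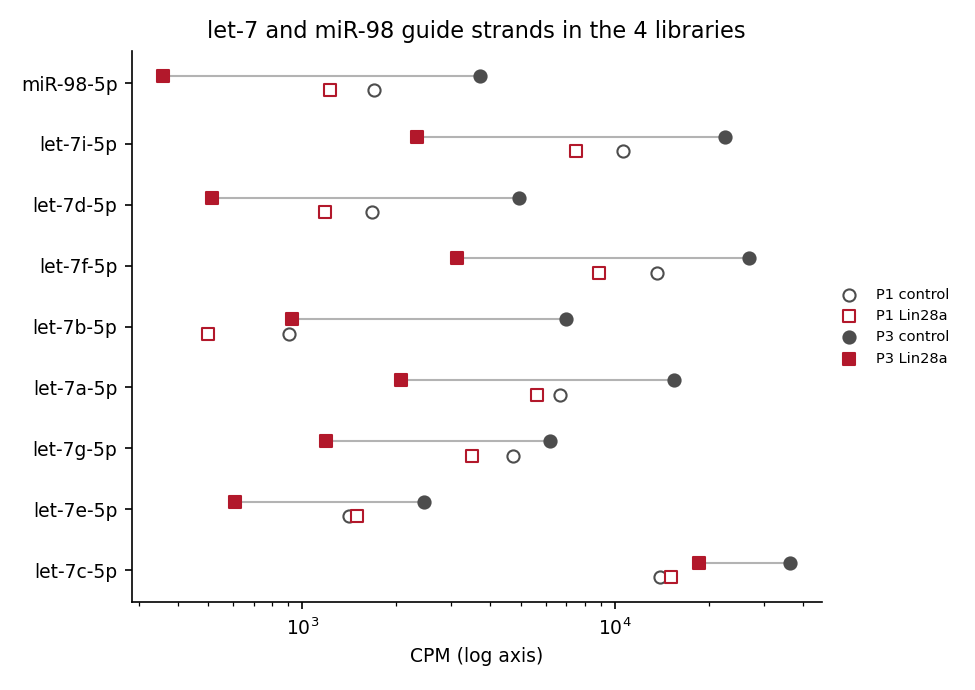
CPM on a logarithmic axis of the 9 guide strands compared, ordered by their P3 ratio, with circles for control and squares for Lin28a, open at P1 and filled at P3. Grey lines join the P3 libraries and are long in 8 strands and shortest for let-7c-5p, at 36399 and 18518 CPM.

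The passenger strands, cut from the 3′ arm of the same hairpins, are usually degraded and were far less abundant, at 0.17% of counts in P3 control and 0.038% in P3 Lin28a. Of 8 compared, 6 were past 2-fold lower and 0 higher, with a median of -2.12. Let-7i-3p had 159 CPM in P3 control and 16.4 in P3 Lin28a (-3.20). Let-7d-3p, the most abundant of them, had 1107 and 212 CPM (-2.38). Let-7b-3p was at -2.18, let-7e-3p at -2.07 and miR-98-3p at -1.88. Both arms of let-7i, let-7d, let-7b, let-7e and miR-98 were therefore past 2-fold lower. The remaining 4 passenger strands listed had 45 counts or fewer in P3 control, let-7f-2-3p among them with 21 counts in P3 control and 0 in P3 Lin28a.

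The passenger strands separate let-7c-1 from the other let-7c hairpin, but not let-7c-2 from let-7a-1. They are shown with the seed in capitals, because let-7c-2-3p and let-7a-1-3p are the same sequence and carry the same reads under both names.
let-7c-1-3p: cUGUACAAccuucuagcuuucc
let-7c-2-3p: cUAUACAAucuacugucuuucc
let-7a-1-3p: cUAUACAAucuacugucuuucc
Let-7c-1-3p was at 108 CPM in P3 control and 15.5 in P3 Lin28a, 894 and 132 counts, which is 6.98-fold lower (5.81 to 8.45), while the hairpin count, which includes the guide strand, gave a log2 ratio of -0.97. The shared strand of let-7c-2 and let-7a-1 had 769 and 430 counts, 1.84-fold lower (1.64 to 2.08), with a log2 ratio of -0.87. The loop of Mirlet7c-1 holds GGAG and that of Mirlet7c-2 does not, while Mirlet7a-1 holds it too. Let-7b-5p, at -2.91, comes from a hairpin without GGAG in the loop, and let-7e-5p, at -2.00, from a hairpin that holds it.

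Several let-7 hairpins lie in clusters with the hairpins of miR-99, miR-100 and miR-125, which are cut from the same primary transcript. MiR-125 is the mammalian relative of lin-4 and miR-99 and miR-100 form a family of their own. Of the 10 such neighbours compared, 1 was past 2-fold higher and 0 lower, against 15.5% higher and 12.1% lower over all 414. Their median was 0.39 and their total 82590 CPM in P3 control and 104268 in P3 Lin28a. At P1 the total lay the other way, at 173385 CPM in control and 132033 in Lin28a, with a median ratio of -0.04. Next to let-7c-1, miR-99a-5p was at 10130 CPM in P3 control and 14468 in P3 Lin28a (0.51), and miR-125b-2-3p at 1263 and 2728 CPM (1.11, or 0.96 with let-7 left out of the total). Next to let-7e, at -2.00, miR-125a-5p was at 4549 and 4947 CPM (0.12) and miR-99b-5p at 46417 and 51161 CPM (0.14). MiR-100-5p was at 0.55 and miR-125b-5p, which comes from 2 hairpins, at 0.71. The only neighbour with a negative ratio was miR-99b-3p, at 224 and 149 CPM (-0.59). Scaled to all microRNA counts, each of the 3 clusters thus held strands on both sides of 0. Leaving let-7 out of the total lowered the ratios, with the median of all moving from 0.08 to -0.08. The positive ratios of the let-7e cluster, at 0.14 and below, were no larger than this shift, so their sign depends on the scaling. In the miR-100 cluster the let-7 side rests on let-7a-5p, which also comes from chromosome 13, and on let-7a-2-3p. The latter had 21 counts in P3 control and 10 in P3 Lin28a.

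**Figure D3:**
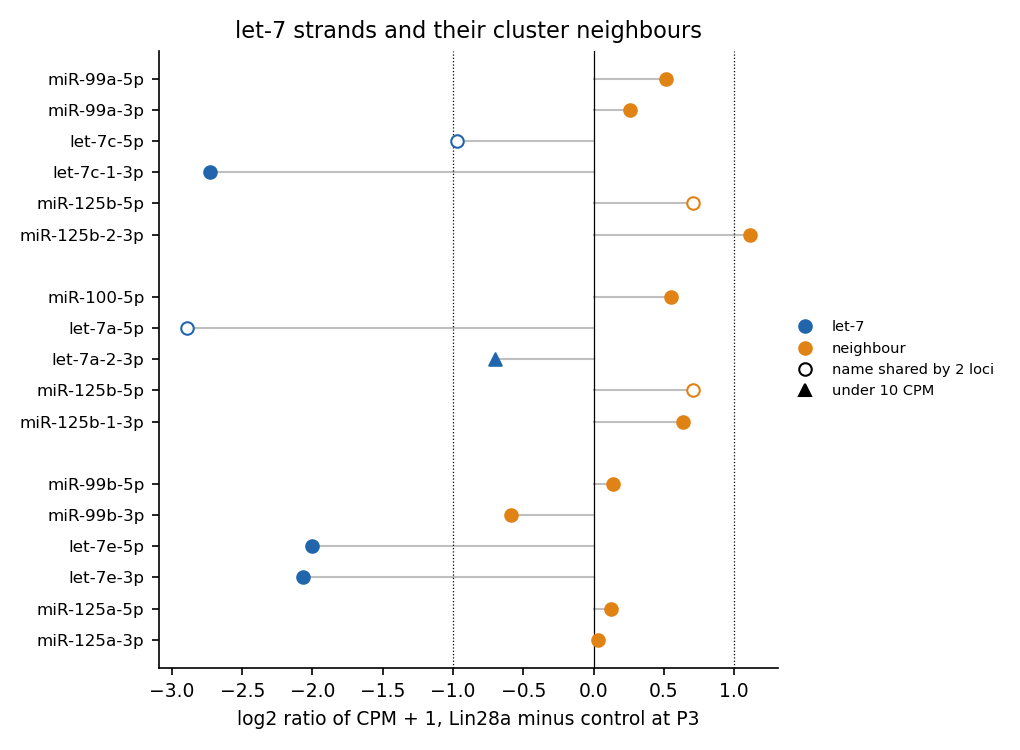
Log2 ratios at P3, Lin28a minus control, for strands of the 3 clusters that join a let-7 (blue) with neighbours of the miR-99, miR-100 and miR-125 families (orange); open circles are names shared by 2 loci and the triangle is under 10 CPM. All let-7 strands lie left of 0 and all neighbours right of it apart from miR-99b-3p at -0.59.

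Among the genes of microRNA maturation, RNA levels at P3 were higher past 2-fold for Dicer1, which cuts the hairpin, and Ago2, an Argonaute. Dicer1 was at 8.39 FPKM in control and 18.3 in Lin28a, and Ago2 at 6.62 and 17.3 FPKM. Zcchc11, the uridylyl transferase known to act with Lin28a, was at 9.27 and 15.0 FPKM, a log2 ratio of 0.64, and its relative Zcchc6 at 0.22. Drosha (0.20), Dgcr8 (0.40), Xpo5 (0.20) and Dis3l2 (0.01) were within 2-fold. Host genes of these hairpins had ratios above 0. Huwe1, which spans miR-98 and let-7f-2, was at 20.9 and 32.5 FPKM, and Wdr82, which spans let-7g, at 47.5 and 53.9 FPKM.

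The largest group on the high side was the Dlk1-Dio3 cluster, an imprinted region on chromosome 12 whose microRNAs are made from long noncoding RNAs of the maternal chromosome and are abundant in embryonic brain. Of 65 microRNAs of this cluster compared, 44 were past 2-fold higher and 0 lower, with a median of 1.24 against 0.08 for all 414, and 64 had a positive ratio. The exception was miR-154-5p, at 61.5 CPM in P3 control and 41.6 in P3 Lin28a, a ratio of -0.56. Their summed level was 99920 CPM in P1 control, 129587 in P1 Lin28a, 29072 in P3 control and 70737 in P3 Lin28a. The sum was higher in Lin28a at both passages, and both P3 libraries were below both P1 libraries. The ratios at P1 had a median of 0.38 over 71 members, 5 past 2-fold higher and 2 lower.

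The members with the largest ratios have different seeds, as their mature sequences show with bases 2 to 8 in capitals. MiR-127-3p was added for its abundance after its values were seen.
miR-299a-5p: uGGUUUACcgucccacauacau
miR-431-5p: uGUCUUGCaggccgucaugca
miR-758-3p: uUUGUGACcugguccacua
miR-370-5p: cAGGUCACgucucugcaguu
miR-411-5p: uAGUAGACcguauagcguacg
miR-369-5p: aGAUCGACcguguuauauucgc
miR-127-3p: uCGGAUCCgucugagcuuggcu
MiR-299a-5p was at 87.6 CPM in P1 control, 94.8 in P1 Lin28a, 11.3 in P3 control and 94.9 in P3 Lin28a, which at P3 is 8.37-fold higher (6.75 to 10.5). The P3 Lin28a library was level with the P1 libraries and P3 control stood below all 3. MiR-431-5p was at 495.5, 951, 147 and 765 CPM in the same order (2.37 at P3), and miR-758-3p at 858, 718, 47.5 and 238 CPM (2.30). MiR-411-5p was at 5188, 6642, 1057 and 4713 CPM, 4.46-fold higher at P3 (4.36 to 4.56). In each of these P3 control was the lowest library. MiR-127-3p, the most abundant member at P3, was at 43143 and 67254 CPM at P1 and at 14518 and 33555 CPM at P3 (1.21).

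The cluster's long RNAs lay the same way in the RNA-seq libraries. Rian, the host of miR-370 and miR-341, was at 19.0 FPKM in P3 control and 53.5 in P3 Lin28a, against 101 and 102 FPKM at P1. Mirg, the host of miR-369, was at 0.53 and 2.40 FPKM at P3. Meg3, at 15.5 and 45.2 FPKM, and Dlk1, a protein-coding gene of the same region, at 2.34 and 10.7 FPKM, were chosen after their values were seen. The Rian and Meg3 values at P1 differed by a log2 ratio of 0.02 and -0.09. Neuronal markers moved with these genes, since Tubb3, Dcx and Stmn2 summed to 45.6 FPKM in P3 control and 161 in P3 Lin28a and to 583 and 488 FPKM at P1. Their part in the cluster's levels was not tested.

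Other groups held smaller differences. On the hypoxia and stress list, 5 of 12 microRNAs compared were past 2-fold lower and 0 higher, with a median of -0.77, against 12.1% lower and a median of 0.08 over all 414. MiR-21a-5p, a growth and injury responsive microRNA, was at 14949 CPM in P1 control, 11291 in P1 Lin28a, 83444 in P3 control and 33699 in P3 Lin28a, 2.48-fold lower at P3 (2.46 to 2.49). It was highest in P3 control, as were miR-155-5p, at 174 and 74.4 CPM at P3, and miR-221-3p, at 1218 CPM in P3 control with a ratio of -1.30. MiR-22-5p was at -1.52, while its more abundant partner miR-22-3p was at -0.41. Both strands of miR-210 were within 2-fold, miR-210-3p at 6122 and 4791 CPM (-0.35) and miR-210-5p at 491 and 684 CPM (0.48). The host of miR-21a, Vmp1, was at 25.4 and 21.5 FPKM.

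Glial lists were small or mixed. On the oligodendrocyte list 2 of 5 were past 2-fold lower and 0 higher (median -0.77), against 12.1% lower over all 414. Of its members within 2-fold, miR-219a-1-3p was at 0.35 and miR-219a-2-3p at -0.20. MiR-338-5p was at 185 CPM in P3 control and 42.1 in P3 Lin28a (-2.11), miR-338-3p at 410.6 and 188 CPM (-1.13) and miR-219a-5p, a driver of oligodendrocyte maturation, at 608 and 356 CPM (-0.77). Aatk, the host of miR-338, was at 22.0 and 15.2 FPKM. On the astroglial list 2 of 13 were past 2-fold lower (median -0.20), a share near the 12.1% over all 414, namely miR-29a-3p at 1342 and 587 CPM and miR-29b-3p at 74.6 and 32.2 CPM. MiR-27b-3p of the same list was at 11995 and 21358 CPM (0.83), and the list summed to 19728 CPM in control and 28067 in Lin28a. Marker RNAs of these cells were lower in Lin28a at P3, with Mbp at 633 FPKM in control and 408 in Lin28a, Sox10 at 74.8 and 54.6 FPKM, and Gfap, Aqp4 and S100b summing to 308 and 85.4 FPKM. The part of cell makeup in these microRNA values was not tested.

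On the neural progenitor and neuronal list, 4 of 27 were past 2-fold higher and 2 lower, with a median of 0.16, against 15.5% higher and 12.1% lower over all 414. MiR-124-3p, the main microRNA of neurons, was at 648 CPM in P1 control, 895 in P1 Lin28a, 70.5 in P3 control and 214 in P3 Lin28a, 3.03-fold higher at P3 (2.76 to 3.33). MiR-204-5p was at 1323 and 3170 CPM at P3 (1.26), whereas miR-129-5p was at 2641 and 1163 CPM (-1.18) and miR-138-1-3p at 39.9 and 12.5 CPM (-1.60). MiR-9-5p, a progenitor microRNA of 3 loci, was at 83788 and 79703 CPM (-0.07). The list did not move in a single direction.

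The remaining lists, apart from the Hox list of 2 members and the mesenchymal list below, were at or under the shares over all 414. Those were 15.5% past 2-fold higher and 12.1% past 2-fold lower. The miR-181 family (7 compared, median 0.16) and the miR-30 family (11 compared, median 0.09) had 0 members past 2-fold. The list from the midbrain dopamine neuron literature had 2 of 19 higher (median 0.43), miR-135a-2-3p at 14.4 and 33.1 CPM and miR-125b-2-3p. On the p53 and quiescence list miR-195a-5p alone was past 2-fold, at 901 and 369.1 CPM. In the miR-17 to 92 group 2 of 18 were lower, miR-18a-5p at 1782 and 612 CPM and miR-19b-3p at 1139 and 353 CPM. The Sfmbt2 cluster, whose copies share reads so that its counts are uncertain, had 0 of 7 past 2-fold, and no microRNA of pluripotent cells reached the minimum. On the Hox list miR-10a-5p was at 23.6 and 69.9 CPM and miR-10b-5p at 10.4 and 7.84 CPM.

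MicroRNAs that mark other cell types were scarce for blood, muscle, epithelial and sensory cells. Those of blood cells summed to 2.29 CPM in P3 control and 2.22 in P3 Lin28a, and 0 reached the minimum. The endothelial miR-126a strands summed to 363 and 619 CPM, with 0 of 2 past 2-fold, and muscle, epithelial and sensory lists each had 1 member compared, within 2-fold. On the mesenchymal list 3 of 8 were past 2-fold higher and 1 lower, against 15.5% higher and 12.1% lower over all 414. Its strands summed to 2009 CPM in P3 control and 1943 in P3 Lin28a. Its members past 2-fold were low, miR-199a-5p at 19.9 and 75.7 CPM, miR-214-3p at 6.52 and 18.5 CPM, miR-145a-3p at 4.34 and 12.6 CPM and miR-145a-5p at 28.8 and 13.6 CPM.

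**Figure D4:**
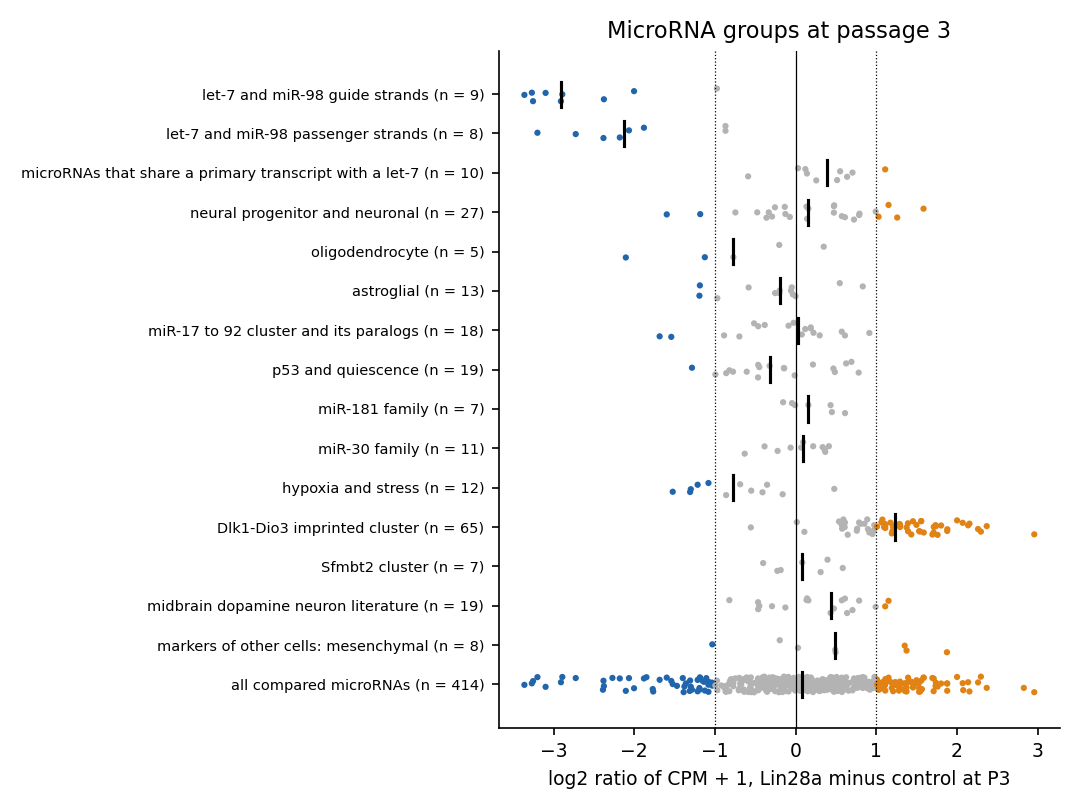
Log2 ratios at P3, Lin28a minus control, for each list with at least 5 members compared and for all 414, with the median as a black bar and vertical spread added for display. Orange points are past 2-fold higher and blue points past 2-fold lower. The let-7 rows lie to the left, with medians of -2.91 and -2.12, and the Dlk1-Dio3 row to the right, with a median of 1.24.

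Outside the lists, miR-375-3p, known from endocrine cells, had the highest ratio after miR-299a-5p. It was at 107 CPM in P1 control, 118 in P1 Lin28a, 6.998 in P3 control and 55.8 in P3 Lin28a, 7.98-fold higher at P3 (6.07 to 10.7). MiR-6944-3p, inside Dbn1, was at 5.67 and 27.2 CPM. On the low side miR-491-5p was at 11.0 and 1.29 CPM, 91 and 11 counts, and is the only microRNA outside the let-7 family among the 10 lowest.

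The 50 low microRNAs were then grouped by seed. A sequence was held for 49 of them, 8 had the let-7 seed and 14 came from a let-7 or miR-98 hairpin. MiR-190a-5p (-1.31) and miR-190b-5p (-1.08), noticed after their values were seen, share a seed and were both past 2-fold lower. Members of some other seeds differed. Within the miR-29 seed, miR-29a-3p and miR-29b-3p were at -1.19 each and miR-29c-3p at -0.06, with 235 CPM in P3 control and 225 in P3 Lin28a. Within the miR-148 and miR-152 seed, chosen after the values were seen, miR-152-3p was at 250 and 72.9 CPM (-1.77) and miR-148b-3p at 2107 and 1028 CPM (-1.04), while miR-148a-3p was at 12830 and 16868 CPM (0.39). The sequences, with the seed in capitals, show members with the same seed and unlike ratios.
miR-29a-3p: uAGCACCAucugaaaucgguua
miR-29b-3p: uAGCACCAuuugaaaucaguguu
miR-29c-3p: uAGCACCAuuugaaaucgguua
miR-152-3p: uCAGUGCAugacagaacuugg
miR-148b-3p: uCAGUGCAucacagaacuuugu
miR-148a-3p: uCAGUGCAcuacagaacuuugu

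The arms of a hairpin did not always have like ratios. For 121 hairpin names both arms were compared, and the median gap between their log2 ratios was 0.57, with 30 gaps over 1. The sign was the same in 78. Both arms were past 2-fold higher for 8 names and lower for 6, of which 5 belong to the let-7 and miR-98 family and the other is miR-338. MiR-145a was the only name with its arms past 2-fold in opposite directions. MiR-18a had a wide gap, with miR-18a-5p at -1.54 and miR-18a-3p at 30.6 and 58.6 CPM (0.91). So did miR-299a, with miR-299a-5p at 2.96, the highest ratio of all, and miR-299a-3p at 61.5 and 89.8 CPM (0.54).

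Host genes gave a further readout from the RNA-seq libraries. Of 128 microRNAs with a single locus inside a host at 1 FPKM or more, 34 were past 2-fold at P3. Over all 414 compared, 64 were past 2-fold higher and 50 lower. The 128 lie in 70 hosts and the 34 in 23, so microRNAs of the same host are not independent. The host had a ratio of the same sign for 21 of the 34 and was past 2-fold the same way for 10. Over all 128 the sign was the same for 71. All 10 lie in Rian or Mirg of the Dlk1-Dio3 cluster, 4 in Rian and 6 in Mirg, and the let-7g and miR-98 strands are among those with opposite signs.

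At P1, where the 2 cultures have libraries of their own, 414 microRNAs also met the minimum, and 11 were past 2-fold higher (2.66%) and 18 lower (4.35%) in Lin28a, with a median of 0.17. Both counts were smaller than at P3. Of 390 microRNAs compared at both passages, 5 were higher at both and 3 lower at both, and 201 had the same sign. The ratios at P1 and P3 gave r = 0.17 (Pearson) and rho = 0.07 (Spearman) across microRNAs, which are not independent and share their library at each passage. The 3 lower at both were miR-98-3p, miR-19b-3p and miR-145a-5p, and the 5 higher at both were miR-1251-5p and miR-154-3p, miR-341-3p, miR-376b-3p and miR-485-3p of the Dlk1-Dio3 cluster. MiR-19b-3p was at 2163 and 516 CPM at P1, a ratio of -2.07. The 9 let-7 and miR-98 guide strands ran from -0.86 for let-7b-5p to 0.13 for let-7c-5p at P1, with a median of -0.47 and 0 past 2-fold.

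**Figure D5:**
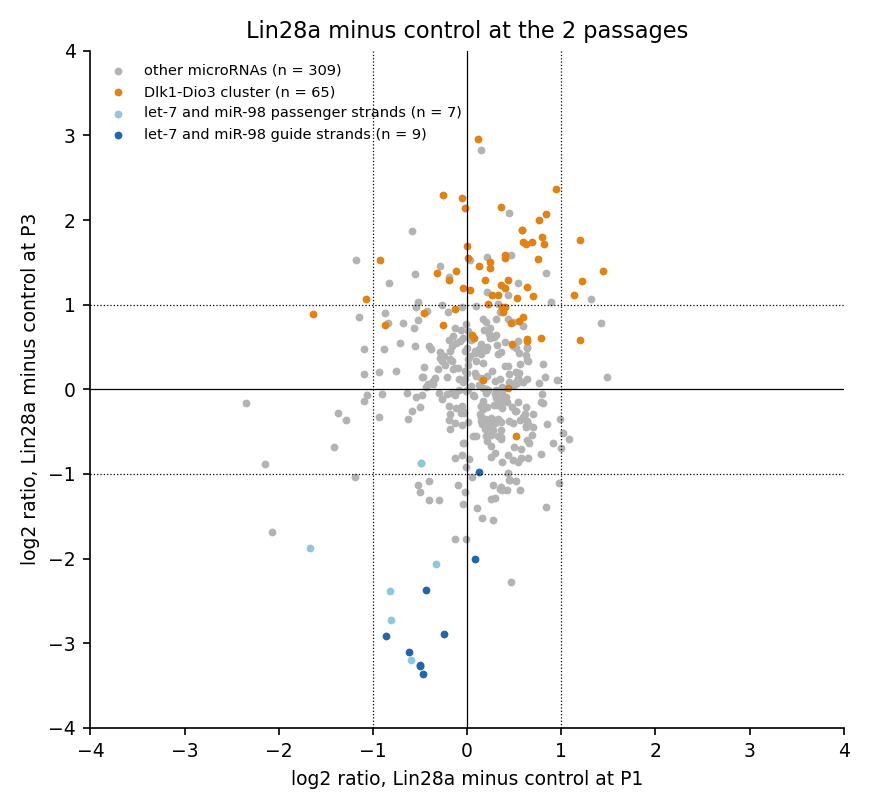
Log2 ratios, Lin28a minus control, at P1 on the x axis and at P3 on the y axis for microRNAs compared at both, with dotted lines at 2-fold. The let-7 and miR-98 guide strands lie between -0.86 and 0.13 at P1 and between -3.36 and -0.97 at P3, and the Dlk1-Dio3 cluster is spread to higher values at P3.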

How the data were processed

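The authors deposited, per the file headers, read counts on each mature microRNA and on its hairpin for each small RNA library, without normalization. From the values, a read that fits several loci appears to be counted at each. The deposited RNA-seq values were read as FPKM from the tools named and the values, since no header names the unit. Bowtie 1.0.0, TopHat2 2.0.6, Cufflinks 2.1.1 and build mm9 are named per the submitters' processing notes. How microRNA reads were counted is not given in the sources used here, and the library kit named for the small RNA is a total RNA kit. From the counts, CPM and log2 ratios with a pseudocount of 1 were computed here, and FPKM ratios likewise. Ratios of counts carry exact conditional binomial intervals at 95%. A count of 0 allows up to 3 reads, or 0.35 CPM in P3 Lin28a. Named microRNAs are all let-7 and miR-98 strands, the 10 highest, 10 lowest and 10 most abundant, up to 4 of each of 22 lists and their hosts. Members and lists were chosen with earlier results of these data known. Sequences and host positions are from RefSeq, GRCm38.p6. The code was tested on simulated data. Alternatives were other scalings (edgeR 4.0.16 in R 4.3.3), minimums and pseudocounts, the hairpin counts, and each read counted once, added after seeing the data. Computations ran in Python 3.11.15 with scipy 1.17.1, pandas 2.3.3 and numpy 2.4.6, and figures used matplotlib 3.10.9.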

Additional observations from a re-analysis of the deposited data

Results flagged for a closer look

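MicroRNAs past 2-fold in opposite directions at the 2 passages were miR-10a-5p and miR-377-3p. MiR-10a-5p, of the Hox clusters, had a log2 ratio of Lin28a to control of -1.18 at P1 and 1.52 at P3, from 143 CPM in P1 control, 62.6 in P1 Lin28a, 23.6 in P3 control and 69.9 in P3 Lin28a. MiR-377-3p, of the Dlk1-Dio3 cluster, was at -1.07 at P1 and 1.06 at P3, where it had 4.46 CPM in control and 10.4 in Lin28a. The differences between the passages were not tested, since each value rests on 1 library a side.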

How the results depend on the processing

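The summed share of all let-7 and miR-98 strands in Lin28a relative to control was 0.236, and 0.244 with median of ratios scaling, 0.231 with trimmed mean of M values, 0.213 and 0.230 with the let-7 family or the 5 most abundant microRNAs left out of the total, 0.218 with hairpin counts and 0.204 with each read counted once. Medians of the guide and passenger strands were taken over those that met the minimum under each setting, 17 when scaled to all microRNA counts. The median there was -2.38, and -2.53 with let-7 left out of the total. It was -2.89 with hairpin counts, -2.12 without a minimum and -2.90 at 100 CPM. At that minimum 29 of 237 microRNAs were past 2-fold higher and 34 lower, in place of 64 and 50 of 414. MiR-145a-3p, at 1.35, was at -0.22 with hairpin counts, which pool both arms. Hairpin counts also brought let-7c-1-3p to -0.97, miR-125b-2-3p to 0.81, miR-135a-2-3p to 0.61, miR-138-1-3p to -0.42, miR-145a-5p to -0.22, miR-199a-5p to 0.75 and miR-22-5p to -0.41. MiR-125b-2-3p was at 0.96 with let-7 left out of the total and miR-145a-5p at -0.99 with median of ratios scaling. A pseudocount of 10 brought miR-135a-2-3p to 0.82, miR-145a-3p to 0.66, miR-145a-5p to -0.72, miR-214-3p to 0.79, miR-341-5p to 0.80 and miR-491-5p to -0.89. Of 47 named microRNAs past 2-fold, 36 stayed so under every alternative run, and 1 of 89 reversed. The Dlk1-Dio3 cluster had between 37 and 46 members higher over the scalings. The medians of the miR-30, miR-17 to 92, Sfmbt2 and sensory lists changed sign between scalings. No paired analysis was possible because each group has 1 library. Leaving out a replicate was not possible either, and low microRNAs such as miR-491-5p, with 11 counts in P3 Lin28a, are limited by depth.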
